A study of Zea mays with 6 samples.

Results

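The comparison described here set leaves taken at the third dehydration (S3) against leaves of watered seedlings (W) and covered 4 of the 6 RNA-seq libraries of the series, 2 per condition. S3 seedlings of maize cultivar B73 were air-dried for 2 h on 3 occasions, with 22 h of full rehydration between the exposures, and the leaves were sampled at the last drying. W seedlings received 0 dehydrations and were sampled without drying. All seedlings were grown in soil at 22 °C with 12 h of light, were 2 weeks old when lifted out of the soil, and stood overnight with their roots in water before any drying. Several plants were pooled for each sample, and the 2 samples of a condition were independent. The other 2 libraries, from leaves after 1 dehydration (S1), entered the fit for the estimate of the spread and are quoted beside single genes. No watered leaves of the age of the S3 seedlings were analysed here. S3 and W therefore differed in drying history, in age, in time out of soil and in the run of the quantification program, and these cannot be told apart. The question was which gene functions stood at other levels at the third dehydration than before any stress.

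Dehydrated leaves of grasses are known to accumulate abscisic acid (ABA), a hormone sensed by PYR/PYL receptors that block type 2C protein phosphatases (PP2Cs) and so free SnRK2 kinases to act on bZIP transcription factors. Among the genes switched on are those of dehydrins and other late embryogenesis abundant (LEA) proteins, which protect membranes and proteins as water is lost. Maize fixes carbon through the C4 pathway, shared between mesophyll cells, which hold phosphoenolpyruvate carboxylase, and bundle sheath cells, which hold Rubisco.

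The files gave FPKM (fragments per kilobase of gene model, scaled to the mapped fragments of the library) for 39634 gene models. The summed FPKM per library ran between 568731 and 672411, and the number of reads behind each value is unknown here, so no counting interval was set. The 100 genes with the highest values took 20.9% and 21.5% of the summed FPKM in S3, against 33.6% and 28.3% in W. The median difference between replicates was 0.23 on the log2 scale in S3 and 0.17 in W. For a check of the tissue, the 24 genes described as kernel zeins, storage proteins of the endosperm, were summed. They reached 16.2 and 15.5 FPKM in S3, against 25.1 and 18.97 FPKM in W. Neither of the 2 tested members was called (limma, 1 with an unadjusted p under 0.05), and a call cannot show tissue present in both conditions. The 21 genes described as pollen genes summed to 60.2 and 67.8 FPKM in S3, against 59.9 and 56.1 FPKM in W. Of these 6 were tested, and the 2 that rose stayed at low levels. The higher was GRMZM2G309847, with 1.32 and 2.43 FPKM in S3, against 0.129 and 0.151 FPKM in W.

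In all, 20130 genes with at least 1 FPKM in 2 or more libraries were tested on log2(FPKM + 1), and a fold change on that scale understates the change of low genes. With an adjusted p no higher than 0.05 and a change of 1 or more on the log2 scale in either direction (limma with Benjamini-Hochberg adjustment), 4424 genes (22.0%) differed between S3 and W. Of these, 2673 (13.3% of the genes tested) rose and 1751 (8.70%) fell in S3. The median log2 fold change was 1.55 among the genes that rose and -1.56 among those that fell, and 313 genes rose by at least 3 on the log2 scale while 125 fell by at least as much. Both S3 libraries lay above both W libraries for 46.5% of the genes tested and below them for 27.4%. Many of the genes named below were picked for large called changes. Where their libraries are said to separate, that is partly fixed by the choice and adds no support. The median over all genes tested was 0.16, and 60.4% of the calls were rises. With the upper quartiles of the libraries set equal, the median moved by -0.20 and rises made up 47.7% of the calls, so the balance of rises against falls depended on the scaling. Where list medians are given below, they are therefore to be read beside the median of 0.16. Several lists are given by counts of calls alone, and these counts depend on the scaling too. Over the 91 lists, the largest shift of a list median on leaving out 1 library had a median of 0.16 and reached 0.95. In 10 lists the median changed sign, and 0 of these had a median past 1 in size. The spread behind each p and SE was taken over the replicates of all 3 conditions. It was then drawn by limma towards a trend over all genes (3 residual and 4.6 prior degrees of freedom). With 2 samples per condition, an SE can therefore be smaller than a gene's own replicates would give. In leaf tissue fewer cells of a type and less RNA per cell cannot be told apart.

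The 12 largest rises, among called genes with at least 5 FPKM in S3 whose libraries did not overlap, ran from 6.61 to 9.10 on the log2 scale. They were led by GRMZM2G056369, isocitrate lyase (icl1), the glyoxylate cycle enzyme that splits isocitrate and lets acetyl units from fat build sugar. It measured 858 and 365 FPKM in S3, against 0.0149 and 0.0261 FPKM in W (log2 fold change 9.10 ± 0.35 (SE), adjusted p = 1.1e-05). Both S3 libraries stood far above W, although the first S3 library was well over the second, and the change was 8.49 to 9.72 when each library was left out. The S1 libraries held 0 and 0.110 FPKM, so the high level was seen at the third dehydration and not at the first (S3 over S1, adjusted p = 3.2e-05). Next was GRMZM2G179462, a putative low-temperature-induced protein of the plasma membrane, with 573 and 388 FPKM in S3 and listed at 0 in both W libraries. Zeros in these files can be failed estimates, as described below for another gene. Of the 2673 rises, 30 were listed at 0 in W. Asparagine synthetase 3 (GRMZM2G053669), which loads nitrogen onto asparagine for transport, measured 1236 and 951 FPKM in S3, against 5.63 and 3.62 FPKM in W (log2 fold change 7.61 ± 0.23 (SE), adjusted p = 7.1e-06). GRMZM2G010855, a PP2C, stood at 159 and 174 FPKM in S3, against 0.443 and 0.127 FPKM in W, and its S3 and S1 levels did not differ at the threshold (S1 124 and 138 FPKM, adjusted p = 0.15). The dehydrin DHN1, also RAB-17 (GRMZM2G079440), closed the group with 122 and 186 FPKM in S3, against 0.674 and 0.434 FPKM in W.

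Of the 12 genes, 10 had no function in their descriptions. Among these the name of icl1 is a RefSeq synonym, and the names of GRMZM2G179462 and GRMZM2G010855 follow the study's text. Of the 7 left without a name, GRMZM2G340257 had 556 and 475 FPKM in S3, against 0.538 and 0.678 FPKM in W, and GRMZM2G106344 had 238 and 223 FPKM in S3, against 0.713 and 0.386 FPKM in W. The S3 replicates of AC205471.4_FG007 lay far apart, with 1282 and 180 FPKM in S3, against 2.28 and 4.84 FPKM in W. Its log2 fold change of 6.78 became 5.37 to 8.20 when libraries were left out. Of the 12 genes, 10 were also higher in S3 than in S1, the exceptions being GRMZM2G010855 and GRMZM2G154735.

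The 12 largest falls ran from -8.61 to -4.33 on the log2 scale, and in all 12 the S3 level was also below the S1 level at an adjusted p of at most 0.05. Chlorophyll a-b binding protein 2 (GRMZM2G104549), an antenna protein that gathers light around the photosystems, measured 2.17 and 1.72 FPKM in S3, against 1594 and 821 FPKM in W (log2 fold change -8.61 ± 0.30 (SE), adjusted p = 7.6e-06). Its S1 libraries, at 849 and 821 FPKM, were close to the lower W library, and S3 alone was near the floor. Chlorophyll a-b binding protein 48 (GRMZM2G120619) had 7.85 and 18.7 FPKM in S3, against 2916 and 1478 FPKM in W (log2 fold change -7.30 ± 0.44 (SE), adjusted p = 3.8e-05). The zinc finger protein CONSTANS-LIKE 16 (GRMZM2G107886), of a family that links light and day length to development, had 1.38 and 0.424 FPKM in S3, against 48.4 and 48.7 FPKM in W. The remaining 9 were without a described function, among them GRMZM2G429955 with 0.502 and 0.141 FPKM in S3, against 478 and 162 FPKM in W, whose W replicates differed widely. In the plot of these 24 genes no S3 library overlaps a W library, as the selection required.

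**Figure D1:**
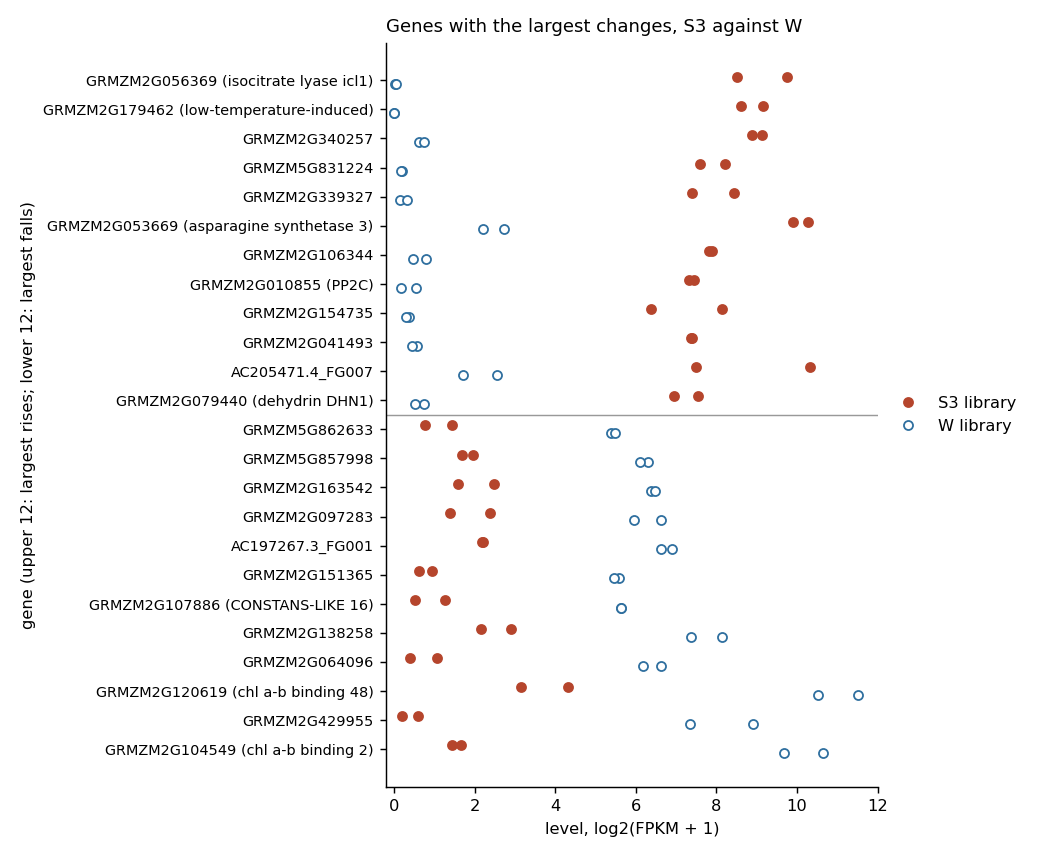
Levels of the 12 largest rises and 12 largest falls as log2(FPKM + 1), with filled points for S3 libraries and open points for W libraries, one row per gene. The rises span 6.61 to 9.10 and the falls -8.61 to -4.33 in log2 fold change, and the S3 replicates of AC205471.4_FG007 lie furthest apart.

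Genes were next grouped by words in their descriptions, and only 3978 of the genes tested carried a function there, of which 980 (24.6%) differed. Of these 980 genes, 638 rose and 342 fell. The counts of the description lists, the auxin genes among them, are to be read beside these numbers. No list was tested against them. Among protective proteins the dehydrins rose the most, with 3 of 4 tested members higher and a list median of 5.29. The most abundant of those that rose, dehydrin GRMZM2G373522, measured 793 and 918 FPKM in S3, against 11.7 and 22.8 FPKM in W (log2 fold change 5.62 ± 0.39 (SE), adjusted p = 6.4e-05). Dehydrin COR410 (GRMZM2G147014), a cold-regulated form, measured 116 and 221 FPKM in S3, against 3.56 and 4.84 FPKM in W (log2 fold change 4.97 ± 0.38 (SE), adjusted p = 9.2e-05). Both were high in each S3 library and low in each W library. Dehydrin 13 (GRMZM2G169372) was high throughout, at 516 and 789 FPKM in S3, against 713 and 482 FPKM in W, and its groups overlapped. Of 7 other LEA-type genes found by their descriptions, only the seed maturation protein PM41 (GRMZM2G457346) rose. It had 127 and 104 FPKM in S3, against 0.757 and 1.39 FPKM in W, and the list median was 0.08 (0.34 without W replicate 1). By annotation from Arabidopsis homologues the paper counted more LEA genes, some rising at the first stress and some only later. The list here therefore does not stand for all LEA genes.

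Aquaporins, the channels that let water cross membranes, had 11 of 22 members higher and 0 lower, with a list median of 1.02. Without W replicate 2 only 7 of them were called. Aquaporin TIP4-2 (GRMZM2G108273), of the vacuole membrane, measured 457 and 424 FPKM in S3, against 10.6 and 11.7 FPKM in W (log2 fold change 5.18 ± 0.22 (SE), adjusted p = 1.4e-05). Among the plasma membrane forms PIP1-1 (GRMZM2G174807) measured 301 and 667 FPKM in S3, against 43.0 and 29.0 FPKM in W. PIP1-2 (AC209208.3_FG002) measured 283 and 427 FPKM in S3, against 27.0 and 22.4 FPKM in W. All of these separated the groups, with the S3 replicates less alike than the W replicates for PIP1-1. Members of all 4 aquaporin classes, TIP, PIP, NIP and SIP, were among the rises.

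Lipid transfer proteins, which are thought to carry lipids for the cuticle, had 5 of 7 members higher and 0 lower (median 1.45). The most abundant, GRMZM2G387360, measured 1433 and 610 FPKM in S3, against 46.9 and 34.4 FPKM in W, with the first S3 library far above the second and a change of 3.89 to 5.12 when libraries were left out. Both genes of raffinose family sugars, which serve as compatible solutes, rose. Galactinol synthase 1 (GRMZM2G165919) had 73.5 and 148 FPKM in S3, against 17.1 and 16.6 FPKM in W, and stachyose synthase (GRMZM2G150906) had 20.7 and 51.0 FPKM in S3, against 1.20 and 1.24 FPKM in W. Neither of the 2 proline oxidases that break down proline, another such solute, was called by limma, and 1 had an unadjusted p under 0.05, while both were called without S3 replicate 2. GRMZM2G053720 measured 102 and 38.3 FPKM in S3, against 41.4 and 29.3 FPKM in W, and its groups overlapped. Genes of proline synthesis were not in this list. The paper places a gene of proline synthesis among those higher at the first stress and higher again at the third. Of the 3 trehalose genes one trehalose-6-phosphate synthase rose (GRMZM2G099860, 28.5 and 29.5 FPKM in S3, against 8.49 and 7.50 FPKM in W). The other fell (GRMZM2G068943, 2.49 and 3.76 FPKM in S3, against 26.1 and 27.8 FPKM in W). Without S3 replicate 2 the rises numbered 2.

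**Figure D2:**
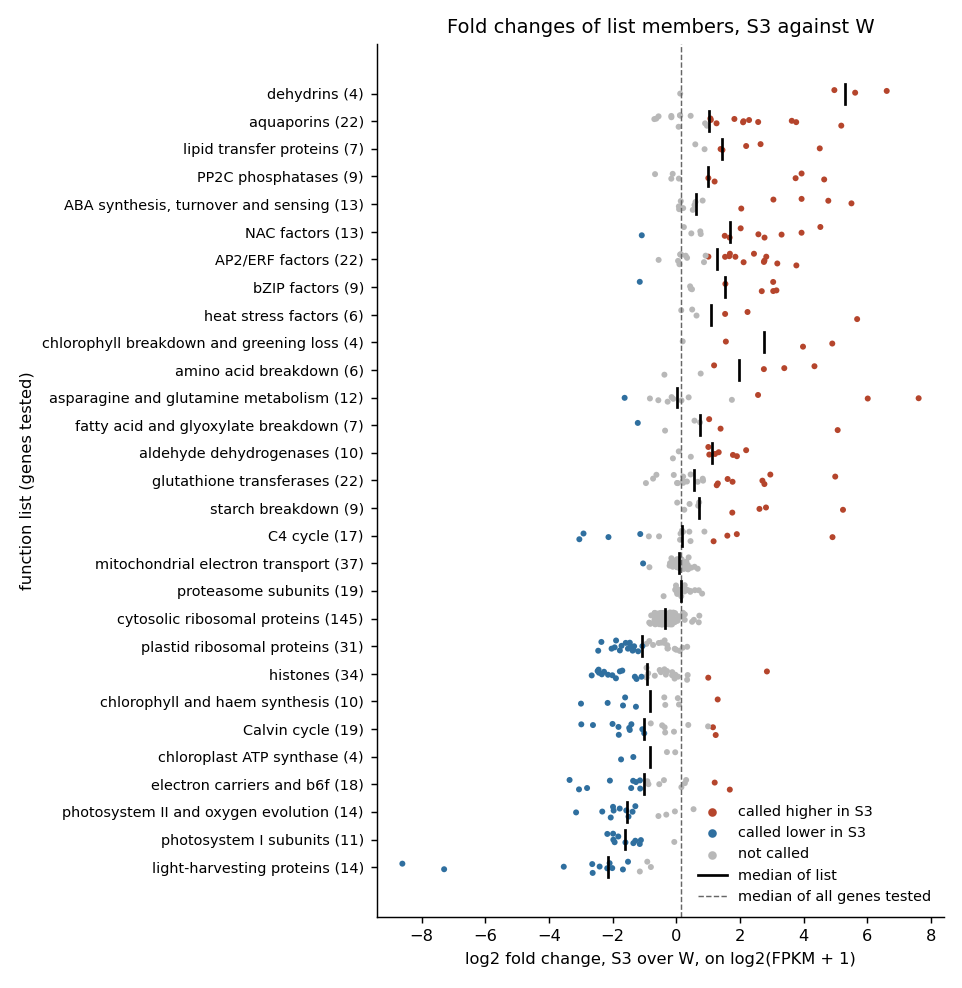
Log2 fold change of S3 over W on log2(FPKM + 1) for each tested member of the lists, by row, with the number tested in brackets, the list median as a bar and the median of all genes tested, 0.16, as a dashed line. Dehydrins lie furthest to the right with a median of 5.29, and light-harvesting proteins furthest to the left with -2.13.

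Some genes of ABA production and signalling were higher in S3. Of 13 tested, 5 rose and 0 fell, with a list median of 0.60. The median became 1.04 without S3 replicate 1 and 0.38 under upper-quartile scaling. The 9-cis-epoxycarotenoid dioxygenase 1 of VIVIPAROUS14 (GRMZM2G014392), which makes the committed cut towards ABA, measured 62.0 and 68.1 FPKM in S3, against 0.519 and 0.391 FPKM in W (log2 fold change 5.50 ± 0.19 (SE), adjusted p = 7.6e-06). Its S1 libraries were higher still, at 208 and 150 FPKM (S3 minus S1 -1.43, adjusted p = 0.0013). A second gene described as viviparous-14 (GRMZM2G417954) had 6.002 and 8.81 FPKM in S3 and was listed at 0 in both W libraries. Zeaxanthin epoxidase (GRMZM2G127139), an earlier step on the same path, had 91.7 and 159 FPKM in S3, against 34.5 and 23.7 FPKM in W. An ABA-responsive protein (GRMZM2G106622) had 55.6 and 62.0 FPKM in S3, against 1.16 and 1.19 FPKM in W. In each of these genes both S3 libraries exceeded both W libraries.

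The PP2Cs, listed by family and not by a known part in ABA signalling, had 5 of 9 described members higher and 0 lower (median 1.01). Under upper-quartile scaling 3 were called. The gene described as ABI2 (GRMZM2G134628), named for an Arabidopsis phosphatase of ABA responses, measured 72.5 and 113 FPKM in S3, against 5.36 and 4.61 FPKM in W (log2 fold change 3.94 ± 0.24 (SE), adjusted p = 3.9e-05). GRMZM2G082487 measured 52.0 and 30.3 FPKM in S3, against 0.740 and 0.519 FPKM in W, and GRMZM2G059453 measured 79.2 and 79.5 FPKM in S3, against 7.23 and 3.34 FPKM in W. By RefSeq synonyms, which reach genes without a described function, 12 of 20 PP2C genes rose and 1 fell, with 7 tested genes in both lists. With upper-quartile scaling 9 rose and 3 fell. The median of 1.19 became 1.14 to 1.31 when libraries were left out. PP2C13 (GRMZM2G159811) had 49.1 and 63.1 FPKM in S3, against 0.0653 and 0.0143 FPKM in W, and PP2C4 (GRMZM2G177386) had 465 and 535 FPKM in S3, against 37.6 and 28.6 FPKM in W. The RefSeq-named ABA receptors ran in both directions, with 1 of 7 higher, 2 lower and a median of -0.68, which was -0.32 without W replicate 1. PYL11 (GRMZM2G133613) rose, with 17.5 and 7.21 FPKM in S3, against 0.590 and 0.881 FPKM in W, whereas PYL7 (GRMZM2G144224) fell, with 3.69 and 1.89 FPKM in S3, against 8.13 and 21.1 FPKM in W. PYL3 (GRMZM2G154987) fell too, with 2.92 and 2.45 FPKM in S3, against 11.1 and 13.01 FPKM in W. The kinase SAPK1 (GRMZM2G035809), of the SnRK2 class in rice, had 113 and 95.8 FPKM in S3, against 24.6 and 18.95 FPKM in W and rose. In the list of SnRK and MAP kinases, 2 of 16 genes rose, 1 fell and 13 were not called, with a median of 0.25.

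Several families of stress-linked transcription factors had members that rose in S3. AP2/ERF factors, which bind dehydration- and ethylene-response elements, had 12 of 22 members higher and 0 lower (median 1.27). A dehydration responsive element binding factor (GRMZM2G301860) measured 53.8 and 64.7 FPKM in S3, against 6.38 and 4.99 FPKM in W (log2 fold change 3.17 ± 0.19 (SE), adjusted p = 3.7e-05), and an ethylene-responsive factor (GRMZM2G132185) measured 41.9 and 47.8 FPKM in S3, against 2.22 and 2.48 FPKM in W. By RefSeq synonym 9 of 19 factors of this family rose and 0 fell, with a median of 0.86 that became 1.40 without S3 replicate 2. Of these, dbf1 (GRMZM2G061487) had 656 and 817 FPKM in S3, against 14.5 and 10.8 FPKM in W, with S1 higher again at 1285 and 1376 FPKM (adjusted p = 0.021). NAC factors, a plant family that includes regulators of stress and leaf senescence, had 8 of 13 members higher and 1 lower (median 1.68), and 5 higher without W replicate 2. The median became 1.11 without S3 replicate 1. By RefSeq synonym, with 5 genes in common, 5 of 16 NAC genes rose and 0 fell, with a median of 0.60. The most changed of the described genes was GRMZM2G430849, with 269 and 298 FPKM in S3, against 12.2 and 10.5 FPKM in W (log2 fold change 4.53 ± 0.19 (SE), adjusted p = 1.2e-05).

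Of 9 described bZIP factors 5 rose and 1 fell (median 1.54). G-box-binding factor 4 (GRMZM5G858197) had 52.3 and 44.6 FPKM in S3, against 4.95 and 5.01 FPKM in W. By RefSeq synonym, with 5 genes in common, 6 of 23 bZIP genes rose and 3 fell, with a median of 0.48 that became 0.28 without S3 replicate 2 and 0.25 under upper-quartile scaling. The largest fall was that of bZIP111 (GRMZM2G073427), with 71.1 and 75.8 FPKM in S3, against 611 and 715 FPKM in W (log2 fold change -3.15 ± 0.21 (SE), adjusted p = 5.6e-05). Heat stress factors had 3 of 6 members higher and 0 lower (median 1.08). Heat shock factor protein 1 (GRMZM2G105348) measured 57.8 and 61.1 FPKM in S3, against 0.273 and 0.0869 FPKM in W. Small heat shock proteins, their usual targets, had 1 of 4 members higher and 1 lower, and 0 higher without W replicate 2. Among 16 homeobox factors 4 rose and 1 fell, and the leucine zipper ATHB-6 gene (GRMZM2G117164) had 44.7 and 106 FPKM in S3, against 0.0432 and 0.0568 FPKM in W. The homeobox falls numbered 2 without S3 replicate 2 or without W replicate 1. WRKY factors, best known from defence, had 5 of 19 higher and a median of 0.14, near that of all genes. The rises numbered 2 without S3 replicate 1, without W replicate 1 or with upper-quartile scaling, 2 fell without W replicate 1, and the median was 0.32 without S3 replicate 1. MYB factors were split, with 4 of 18 higher and 4 lower.

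The genes of photosynthesis were lower in S3. Over 6 lists of the light reactions and the Calvin cycle, 52 of 80 tested genes fell, 4 rose and 24 were not called, with a median of -1.37. Together they made up 3.22% and 4.28% of the summed FPKM in S3, against 13.2% and 9.77% in W. In S1 they made up 9.69% and 9.27%. The S3 shares were the lowest of the 6 libraries. The 52 falls became 40 at an adjusted p of at most 0.01, 41 with no filter on low values and 55 under upper-quartile scaling. When each library was left out, the median of the 80 genes ran from -1.64 to -1.09.

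Light-harvesting proteins, which bind most of the leaf's chlorophyll, had 11 of 14 members lower and 0 higher (median -2.13), and their share of summed FPKM was 1.09% and 1.64% in S3, against 5.75% and 4.12% in W. The antenna protein CP24 gene GRMZM2G092427 measured 40.9 and 83.1 FPKM in S3, against 957 and 494 FPKM in W (log2 fold change -3.54 ± 0.40 (SE), adjusted p = 4.8e-04). By RefSeq synonym 7 of 7 tested genes fell (median -2.63), 4 of them in both lists. The gene named cab-m1 by RefSeq (GRMZM2G351977) measured 476 and 865 FPKM in S3, against 10482 and 6440 FPKM in W (log2 fold change -3.68 ± 0.48 (SE), adjusted p = 8.9e-04). In this and the CP24 gene, W replicate 1 was well above W replicate 2, and every S3 library was below both. The most abundant member, chlorophyll a-b binding protein 1 (AC207722.2_FG009), measured 2456 and 4342 FPKM in S3, against 12689 and 8604 FPKM in W and its call was lost whichever of the 4 libraries was left out. The 3 members not called were GRMZM2G018627, GRMZM2G010884 and GRMZM2G036880. Antenna genes of this kind have close copies, between which reads could be split or shared.

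Photosystem I subunits had 10 of 11 members lower and 0 higher (median -1.60). This became 5 lower without S3 replicate 1 and 4 without W replicate 1. The member not called was the iron-sulfur centre (GRMZM5G815553), the product of a gene known from the plastid genome, with 78.6 and 92.5 FPKM in S3, against 90.5 and 87.8 FPKM in W. Subunit gene GRMZM2G016066 measured 630 and 1005 FPKM in S3, against 3937 and 2530 FPKM in W (log2 fold change -1.99 ± 0.40 (SE), adjusted p = 0.0063), and subunit gene GRMZM2G024150 measured 53.3 and 76.1 FPKM in S3, against 336 and 250 FPKM in W. Photosystem II and the oxygen-evolving complex had 10 of 14 members lower and 0 higher (median -1.54). Oxygen-evolving enhancer protein 3-1 (GRMZM5G804323), of the complex that splits water, had 234 and 326 FPKM in S3, against 1710 and 1129 FPKM in W (log2 fold change -2.33 ± 0.32 (SE), adjusted p = 0.0011). The chlorophyll apoprotein CP43 (GRMZM5G856777), also a plastid gene product, was not called at 9.17 and 12.4 FPKM in S3, against 17.1 and 10.7 FPKM in W. The libraries were made from polyadenylated RNA, and how well they captured plastid transcripts was not tested. No contrast of plastid with nuclear genes is drawn from these values.

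Electron carriers had 9 of 18 members lower and 2 higher (median -1.02), and 11 lower and 1 higher under upper-quartile scaling. The median became -1.22 to -0.78 when libraries were left out. Plastocyanin (GRMZM2G071450), the copper carrier to photosystem I, measured 953 and 1037 FPKM in S3, against 5227 and 3417 FPKM in W (log2 fold change -2.09 ± 0.38 (SE), adjusted p = 0.0039). Ferredoxin-1 (GRMZM2G122337), which takes electrons from photosystem I, measured 32.2 and 59.6 FPKM in S3, against 632 and 331 FPKM in W (log2 fold change -3.35 ± 0.38 (SE), adjusted p = 4.5e-04). Ferredoxin-3 (GRMZM2G053458), known as the form of non-green tissue, moved the other way with 160 and 128 FPKM in S3, against 49.98 and 38.5 FPKM in W. S3 replicate 2 was above S3 replicate 1 for both genes that fell. The gamma subunit of the chloroplast ATP synthase (GRMZM2G048907) fell, with 145 and 186 FPKM in S3, against 637 and 474 FPKM in W.

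**Figure D3:**
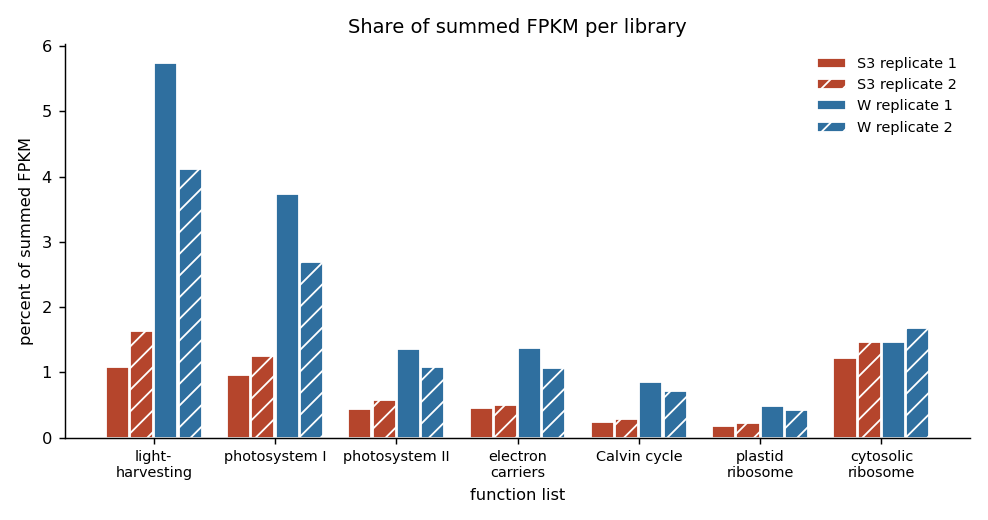
Share of the summed FPKM of each library taken by 7 lists, in percent, as bars from 0, with S3 bars left of W bars and hatching for replicate 2. Light-harvesting proteins took 1.09% and 1.64% in S3, against 5.75% and 4.12% in W, while cytosolic ribosomal proteins took 1.22% and 1.46% in S3, against 1.46% and 1.67% in W.

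In the Calvin cycle, which turns carbon dioxide into sugar phosphates, 10 of 19 genes fell and 2 rose (median -1.01). Under upper-quartile scaling 1 rose and 10 fell, and at an adjusted p of at most 0.01 the falls numbered 7. The median became -1.215 to -0.801 when libraries were left out. The Rubisco small chain gene GRMZM2G098520 measured 58.9 and 73.5 FPKM in S3, against 761 and 367 FPKM in W (log2 fold change -2.99 ± 0.41 (SE), adjusted p = 0.0012). Phosphoglycerate kinase (GRMZM2G089136) measured 64.1 and 96.9 FPKM in S3, against 597 and 402 FPKM in W, and a glyceraldehyde-3-phosphate dehydrogenase (GRMZM2G337113) measured 353 and 419 FPKM in S3, against 1810 and 1319 FPKM in W. These 3 genes separated the groups in every library. The rises were ribose-5-phosphate isomerase (GRMZM2G035599), at a low level and not called without S3 replicate 1, and a Rubisco large subunit-binding protein (GRMZM2G015989), a chaperone.

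By counts the C4 cycle was split, with 4 of 17 genes higher, 4 lower and a median of 0.18 (0.36 without S3 replicate 1). Its share of summed FPKM was lower in S3, at 0.348% and 0.504%, against 0.846% and 0.737% in W. The leaf form of phosphoenolpyruvate carboxylase (GRMZM2G083841) fell, with 80.3 and 311 FPKM in S3, against 1533 and 941 FPKM in W, a change of -2.92 that became -3.89 to -1.95 when libraries were left out. Phosphoenolpyruvate carboxykinase (GRMZM2G001696) fell as well, with 49.3 and 45.3 FPKM in S3, against 266 and 166 FPKM in W. The chloroplast NADP-malic enzyme (GRMZM2G085019), the main decarboxylase of the maize bundle sheath, had 677 and 936 FPKM in S3, against 2028 and 1505 FPKM in W and lost its call without S3 replicate 1 (adjusted p = 0.16) and without W replicate 1 (adjusted p = 0.15). In contrast, another NADP-malic enzyme gene (GRMZM2G118770) rose, with 21.2 and 41.6 FPKM in S3, against 0.0513 and 0 FPKM in W. The gene for NADP-malate dehydrogenase (GRMZM2G129513) overlapped between the groups, with 423 and 731 FPKM in S3, against 560 and 470 FPKM in W.

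The 4 markers of mesophyll cells did not move alike. Besides the carboxylase that fell, pyruvate phosphate dikinase 1 (GRMZM2G306345) had 5635 and 6695 FPKM in S3, against 11253 and 8819 FPKM in W and carbonic anhydrase (GRMZM2G121878) had 115 and 210 FPKM in S3, against 263 and 195 FPKM in W, and neither these nor the dehydrogenase was called. The dikinase gene is listed at 0 in both S1 libraries, an improbable value for a gene at this level, so zeros in these files can be failed estimates. All 4 bundle sheath markers fell, the second Rubisco small chain gene (GRMZM2G113033) with 56.7 and 88.2 FPKM in S3, against 798 and 458 FPKM in W. The part of cell composition in these results was not tested.

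Of 10 genes of chlorophyll and haem synthesis 5 fell and 1 rose (median -0.82). Protochlorophyllide reductase, the light-driven step, was lower in all 3 of its genes. GRMZM2G073351, the most abundant, had 143 and 172 FPKM in S3, against 610 and 414 FPKM in W, and GRMZM2G036455 had 1.54 and 2.43 FPKM in S3, against 28.0 and 18.1 FPKM in W. The rise was ferrochelatase-2 (GRMZM2G159013), which turns the path towards haem, with 40.6 and 35.1 FPKM in S3, against 12.9 and 16.8 FPKM in W.

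Genes of chlorophyll loss moved in the other direction, with 3 of 4 higher and a median of 2.77. A senescence-inducible stay-green gene (GRMZM2G091837), whose product starts the dismantling of chlorophyll-protein complexes, measured 164 and 95.3 FPKM in S3, against 3.75 and 2.75 FPKM in W (log2 fold change 4.90 ± 0.26 (SE), adjusted p = 2.6e-05). Lethal leaf-spot 1 (GRMZM2G339563), a pheophorbide a oxygenase that opens the chlorophyll ring, measured 324 and 198 FPKM in S3, against 13.95 and 16.3 FPKM in W (log2 fold change 3.98 ± 0.26 (SE), adjusted p = 5.2e-05). A second stay-green gene (GRMZM2G379563) had 2.68 and 1.35 FPKM in S3 and was listed at 0 in W. The S1 libraries held 19.6 and 21.3 FPKM of GRMZM2G091837, below S3 (adjusted p = 4.8e-04).

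Carotenoid synthesis was split, with 4 of 13 genes higher and 2 lower. A beta-carotene hydroxylase (GRMZM2G382534), which makes xanthophylls that feed ABA synthesis, had 59.5 and 59.3 FPKM in S3, against 0.0362 and 0.0476 FPKM in W (log2 fold change 5.86 ± 0.32 (SE), adjusted p = 2.7e-05). Violaxanthin de-epoxidase (GRMZM2G027219), which works against the epoxidase in strong light, fell with 18.1 and 22.3 FPKM in S3, against 64.3 and 49.3 FPKM in W.

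The plastid and the cytosolic translation machinery differed in their counts. Of 31 plastid ribosomal proteins 16 fell and 0 rose, with a median of -1.07. The 50S protein L40 gene (GRMZM2G157007) measured 19.7 and 26.8 FPKM in S3, against 165 and 103 FPKM in W (log2 fold change -2.45 ± 0.26 (SE), adjusted p = 3.4e-04), and a plastid-specific 30S protein (GRMZM2G090271) measured 34.1 and 45.3 FPKM in S3, against 235 and 179 FPKM in W. Of 145 cytosolic ribosomal proteins 0 were called by limma in either direction, with a median of -0.37, and under upper-quartile scaling 3 fell with a median of -0.60. Without S3 replicate 1 the median was -0.20. Their share of summed FPKM was 1.22% and 1.46% in S3, against 1.46% and 1.67% in W. At an unadjusted p under 0.05 and with no limit on the fold change, 56 of the 145 had a lower and 4 a higher level in S3.

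Histones, the proteins that pack DNA and are made mostly as cells divide, had 14 of 34 genes lower and 2 higher (median -0.91). A histone H4 gene (AC233865.1_FG001) measured 47.8 and 27.5 FPKM in S3, against 225 and 181 FPKM in W (log2 fold change -2.44 ± 0.26 (SE), adjusted p = 3.6e-04). All of the called H1, H3 and H4 genes fell. A histone H1 gene (GRMZM2G164020) had 8.65 and 3.87 FPKM in S3, against 44.5 and 40.2 FPKM in W. The rises were H2B.3 (GRMZM2G057852), with 20.5 and 18.9 FPKM in S3, against 2.03 and 1.72 FPKM in W, and H2B.1 (GRMZM2G071959), whose call was lost without S3 replicate 2, without W replicate 2 or under either other scaling. Histone genes are near-identical copies, so their separate values are uncertain. Of 15 genes of the cell cycle and replication 1 rose and 1 fell, and 2 rose without W replicate 1.

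Asparagine synthetases, which store and move nitrogen, were among the largest rises. Besides asparagine synthetase 3, asparagine synthetase 4 (GRMZM2G078472) had 84.4 and 80.1 FPKM in S3, against 0.311 and 0.262 FPKM in W (log2 fold change 6.02 ± 0.18 (SE), adjusted p = 7.1e-06). The S1 libraries held 61.2 and 69.99 FPKM of asparagine synthetase 3 and 8.52 and 6.29 FPKM of asparagine synthetase 4. The glutamine synthetases went both ways, with root isozyme 2 (GRMZM2G024104) at 50.1 and 36.1 FPKM in S3, against 8.34 and 4.76 FPKM in W. Root isozyme 1 (GRMZM2G050514) was at 10.7 and 3.90 FPKM in S3, against 23.3 and 21.5 FPKM in W, and its call held only with all libraries or without S3 replicate 1. Over the 12 genes of asparagine and glutamine metabolism 3 rose and 1 fell, with a median of 0.03.

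Amino acid breakdown had 4 of 6 genes higher and 0 lower (median 1.97). The bifunctional lysine-ketoglutarate reductase (GRMZM2G181362), which degrades lysine, measured 430 and 318 FPKM in S3, against 57.6 and 50.8 FPKM in W (log2 fold change 2.75 ± 0.26 (SE), adjusted p = 2.1e-04). The tyrosine-degrading 4-hydroxyphenylpyruvate dioxygenase 1 (GRMZM2G088396) measured 197 and 104 FPKM in S3, against 5.16 and 7.22 FPKM in W. A branched-chain aminotransferase (GRMZM2G153536) measured 168 and 77.8 FPKM in S3, against 9.42 and 10.6 FPKM in W. S3 replicate 1 was the highest library in these 3 genes, and no S3 library reached down to W.

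Of 18 proteases 4 rose and 0 fell, and this became 1 without S3 replicate 1 or without W replicate 2. Cysteine proteinase 1 (GRMZM2G098298) was abundant in all libraries, with 2771 and 2523 FPKM in S3, against 1281 and 1051 FPKM in W, and lost its call without S3 replicate 1 and without W replicate 2. Autophagy-related 7 (GRMZM2G005304), which activates the proteins of the autophagosome, rose with 80.97 and 39.5 FPKM in S3, against 9.73 and 11.5 FPKM in W, while 10 of 12 autophagy genes were not called (11 without S3 replicate 1). None of 19 proteasome subunits was called by limma (median 0.16), and 6 of the 19 had an unadjusted p under 0.05, 5 of them with a higher level in S3.

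The glyoxylate cycle and fat breakdown had 3 of 7 described genes higher and 1 lower (median 0.75). Malate synthase (GRMZM2G102183), the partner of isocitrate lyase in that cycle, measured 696 and 338 FPKM in S3, against 8.45 and 21.2 FPKM in W (log2 fold change 5.07 ± 0.63 (SE), adjusted p = 7.0e-04). Its S1 libraries, at 1.93 and 8.95 FPKM, were lower than S3 (adjusted p = 3.9e-04). Both enzymes particular to the cycle thus stood high in S3 and low in W, and both were higher in S3 replicate 1 than in S3 replicate 2. Acyl-coenzyme A oxidase 2 (GRMZM2G014136), of peroxisomal fatty acid oxidation, had 105 and 92.6 FPKM in S3, against 34.3 and 39.97 FPKM in W.

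Starch breakdown had 4 of 9 genes higher and 0 lower (median 0.72). Beta-amylase GRMZM2G450125, which cuts maltose from starch, measured 23.5 and 43.8 FPKM in S3, against 4.80 and 4.06 FPKM in W (log2 fold change 2.61 ± 0.34 (SE), adjusted p = 8.3e-04). Beta-amylase GRMZM2G082034 measured 18.0 and 17.2 FPKM in S3, against 1.601 and 1.68 FPKM in W, and GRMZM2G025833 had 20.1 and 66.6 FPKM in S3 and was listed at 0 in both W libraries. Starch synthesis went both ways, with 4 of 15 higher and 2 lower, or 1 lower without S3 replicate 1 or without W replicate 1. An ADP-glucose pyrophosphorylase small subunit (GRMZM2G106213), of the first step, had 193 and 222 FPKM in S3, against 7.52 and 9.60 FPKM in W (log2 fold change 4.45 ± 0.21 (SE), adjusted p = 1.9e-05). Another gene described as such an enzyme, a glucose-1-phosphate adenylyltransferase (GRMZM2G163437), fell with 64.2 and 100.9 FPKM in S3, against 234 and 210 FPKM in W.

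Of 14 genes of sucrose metabolism 5 rose and 3 fell (median 0.25). Sucrose synthase 1 (GRMZM2G089713), which in plants mainly cleaves sucrose, had 182 and 154 FPKM in S3, against 18.9 and 14.003 FPKM in W (log2 fold change 3.28 ± 0.21 (SE), adjusted p = 4.7e-05). A neutral invertase (GRMZM2G136139) had 17.8 and 19.6 FPKM in S3, against 2.74 and 2.56 FPKM in W. Sucrose-phosphate synthase (GRMZM5G875238), the route of synthesis, fell with 12.6 and 22.4 FPKM in S3, against 53.3 and 59.7 FPKM in W, and the falls of the list numbered 1 without W replicate 2.

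**Figure D4:**
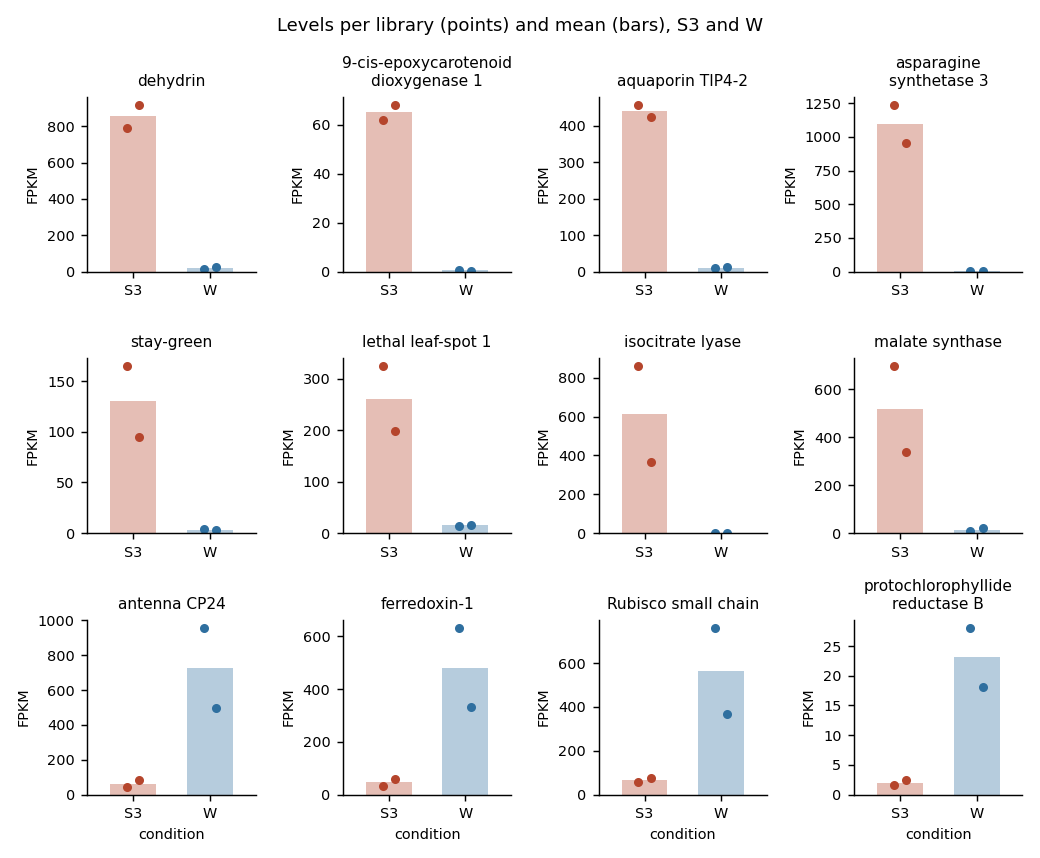
FPKM of 12 genes, 1 per panel, with S3 left of W, a point per library and a bar from 0 for the mean of the 2 libraries. The first 8 panels show genes that rose, such as dehydrin GRMZM2G373522 at 793 and 918 FPKM in S3 and 11.7 and 22.8 FPKM in W, and the last 4 show genes that fell.

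Glutathione transferases, which couple glutathione to reactive compounds, had 8 of 22 members higher and 0 lower (median 0.56), and 2 lower without W replicate 2. Glutathione transferase19 (GRMZM2G335618) measured 358 and 289 FPKM in S3, against 11.1 and 7.50 FPKM in W (log2 fold change 4.99 ± 0.22 (SE), adjusted p = 1.5e-05). Aldehyde dehydrogenases, which clear reactive aldehydes, had 7 of 10 members higher and 0 lower (median 1.13), or 4 under upper-quartile scaling. The family 7 member (GRMZM2G130440) measured 910 and 849 FPKM in S3, against 170 and 215 FPKM in W (log2 fold change 2.19 ± 0.30 (SE), adjusted p = 0.0010). Of 9 metallothioneins, small metal-binding proteins, 3 rose. Metallothionein type 2 gene GRMZM2G070912 had 185 and 73.6 FPKM in S3, against 12.4 and 7.97 FPKM in W, with S3 replicate 1 well above replicate 2.

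Cytochrome P450s, oxidases of hormone and defence metabolism, had 5 of 20 members higher and 3 lower (5 lower without S3 replicate 1), and class III peroxidases of the cell wall had 1 of 7 higher and 2 lower. The peroxidase falls numbered 1 without either S3 replicate or without W replicate 2. Antioxidant enzymes were split by form, with 2 of 17 higher and 5 lower, although the falls numbered 2 without S3 replicate 1 or without W replicate 1, and 1 rose under upper-quartile scaling. Catalase isozyme 1 (GRMZM2G088212) had 272 and 205 FPKM in S3, against 82.2 and 82.2 FPKM in W and rose. Catalase isozyme 3 (GRMZM2G079348) had 350 and 424 FPKM in S3, against 865 and 798 FPKM in W. Its call was lost without S3 replicate 1 and without W replicate 1. Among the other falls were enzymes of the chloroplast, such as the 2-cys peroxiredoxin BAS1 (GRMZM2G139680) with 24.3 and 31.6 FPKM in S3, against 82.9 and 70.8 FPKM in W and the thylakoid-bound ascorbate peroxidase (GRMZM2G006791) with 105 and 169 FPKM in S3, against 305 and 256 FPKM in W. The ascorbate peroxidase, too, was not called without S3 replicate 1 or without W replicate 1.

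Phenylpropanoid and flavonoid enzymes, which make lignin precursors and pigments, had 5 of 11 and 7 of 17 members higher, each with 1 lower. A caffeic acid O-methyltransferase (AC196475.3_FG004) measured 88.2 and 72.5 FPKM in S3, against 7.29 and 10.4 FPKM in W (log2 fold change 3.06 ± 0.21 (SE), adjusted p = 6.3e-05). An anthocyanidin glucosyltransferase (GRMZM2G455075) measured 33.8 and 39.2 FPKM in S3, against 2.13 and 1.28 FPKM in W. Of 13 protease inhibitors 5 rose and 1 fell (median 0.99). The subtilisin-chymotrypsin inhibitor homologue (GRMZM2G028393) was the most abundant, with 5935 and 5195 FPKM in S3, against 1869 and 1446 FPKM in W, and lost its call without S3 replicate 1 and without W replicate 2. Of 20 pathogenesis-related genes 7 rose, all described as chitinases or glucanases, and 1 fell. Without S3 replicate 2 or without W replicate 1, 2 fell. The fall with all libraries was pathogenesis related protein-5 (GRMZM2G402631), with 22.2 and 18.7 FPKM in S3, against 117 and 218 FPKM in W.

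Jasmonate synthesis had 4 of 15 genes higher and 0 lower (median 0.45). Under upper-quartile scaling the median was 0.24 and 2 fell. Allene oxide synthase (GRMZM2G067225), the first step particular to that hormone, had 40.6 and 19.98 FPKM in S3, against 2.88 and 3.23 FPKM in W, and lipoxygenase GRMZM2G015419 had 2296 and 2340 FPKM in S3, against 1036 and 769 FPKM in W. The call of this lipoxygenase was lost without W replicate 2 (adjusted p = 0.072). In the ethylene list 2 of 8 genes rose, and the ACC oxidase GRMZM2G144668, of the last synthetic step, measured 190 and 95.1 FPKM in S3, against 8.09 and 12.4 FPKM in W (log2 fold change 3.62 ± 0.33 (SE), adjusted p = 1.8e-04). The ethylene rises numbered 1 without S3 replicate 1, without either W replicate and under upper-quartile or median-of-ratios scaling. Cytokinin genes were split, with 5 of 20 higher and 5 lower. Cytokinin oxidase 2 (GRMZM2G050997), which degrades the hormone, had 42.4 and 47.2 FPKM in S3, against 2.61 and 3.33 FPKM in W and rose. Response regulator 7 (GRMZM2G096171) had 0.941 and 1.63 FPKM in S3, against 10.7 and 8.60 FPKM in W and fell, as did the type-A response regulator RR6 (GRMZM2G040736) with 0.256 and 0.554 FPKM in S3, against 5.96 and 4.63 FPKM in W. Of 18 gibberellin genes 3 rose and 5 fell, and of 29 auxin genes 5 rose and 1 fell. The gibberellin falls numbered 3 without S3 replicate 1 or without W replicate 1. None of 10 brassinosteroid genes was called by limma, and 6 of the 10 had an unadjusted p under 0.05, 5 of them with a higher level in S3.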

How the data were processed

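Polyadenylated RNA of leaves was sequenced for 2 samples each of S3, W and S1. Per the study's methods the authors mapped reads with bowtie and tophat to B73 RefGen_v2 (gene models 5b, filtered set) and took FPKM per gene from cuffdiff, with S3 and S1 in one run and S1 and W in another. The submitters' notes name CASAVA 1.8.2, TopHat 0.12.8 and cuffdiff. The deposited FPKM values are not counts, so no count test was run. The labels give growth rooms and the methods a greenhouse.

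S3 values were multiplied by 0.993, the median ratio of S1 values between the runs, and all S3 values printed carry this factor. Genes with at least 1 FPKM in 2 of the 6 libraries were kept (20130 of 39634), transformed to log2(FPKM + 1) and fitted with limma 3.58.1 in R 4.3.3, with a mean per condition over all 6 libraries and a variance trend. P-values were adjusted over all genes tested by Benjamini-Hochberg. A gene was called where the adjusted p was no higher than 0.05 and the change was 1 or more on the log2 scale in either direction. The code was run on simulated data with far fewer changed genes than here, none of them low and with rises equal to falls. That run does not give the error rate of these calls. Read depth per gene is unknown here, so precision was judged from the replicates, with the spread shared between genes by limma.

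Function lists came from words in the descriptions, and 6 families also from RefSeq synonyms (Zm-B73-REFERENCE-NAM-5.0), which matched 18773 gene models. The comparison, the 91 lists and the genes were chosen with earlier results of these data known. After values were seen, 48 members of 23 lists that matched by a wrong word were taken out, and the families by RefSeq synonym were added. Named were the 12 largest rises and falls among called genes without overlap and with at least 5 FPKM in the higher condition, in each list the 3 largest changes and the most abundant gene, and cell type markers. Other members were named after their values were seen, to show counts of a few genes or opposite directions. Lists were described by counts and medians, without a test of a list. The deposited series table of condition means was used only to derive the factor. No coordinates or sequences were used.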

Additional observations from a re-analysis of the deposited data

How the results depend on the processing

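Alternatives were another scaling (upper quartile, median of ratios, no factor on S3), pseudocounts of 0.1 and 2, no filter or a filter of 5 FPKM, a fit of the 4 libraries, a replicate block, no variance trend, an adjusted p of at most 0.01, no fold-change limit, and leaving out each library. The count of called genes (4424, with 2673 higher and 1751 lower) stayed within 1.5 times of its value under all but one of them. Without the fold-change limit 8268 genes were called, 5270 higher and 2998 lower. Leaving out each library gave 4127 to 4644 calls, 2530 to 2783 of them higher and 1560 to 1861 lower. Upper-quartile scaling gave 4155 calls, 1982 higher and 2173 lower, and 3733 of the calls were the same genes. Median-of-ratios scaling moved the median by -0.13 and gave 2185 higher and 2016 lower. With the replicate block 4406 genes were called and 4381 of them were the same genes. The replicate numbers mark a small difference in read length in the study's methods. Across genes, S3 and W libraries of one number deviated from their condition means with r = -0.087. The values were 0.0621 for S3 and S1 and 0.143 for W and S1. Over all lists and alternatives the list median moved in 213 comparisons by at least the spread between replicates, or 0.1 for the lists as first worded, and stayed closer in 1083. Genes not called could change sign. NADP-malate dehydrogenase (GRMZM2G129513, 0.12) was at -0.12 and dehydrin 13 (GRMZM2G169372, 0.12) at -0.11 under upper-quartile scaling, and at -0.039 and -0.033 under median-of-ratios scaling. Leaving out libraries gave -0.28 to 0.51 and -0.18 to 0.43 for these genes, -0.18 to 0.052 for the photosystem I iron-sulfur centre (GRMZM5G815553) and -0.63 to 0.0043 for CP43 (GRMZM5G856777). Causes were not tested.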

Other observations

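Several signalling and transport groups were not part of the comparison above. Their counts were not tested against the 638 rises and 342 falls among the 3978 genes with a described function. Of 63 calcium sensors and kinases, proteins that read calcium signals, 13 rose and 3 fell in S3 (5 fell without W replicate 1). The gene described as a calcium-dependent protein kinase AK1 (GRMZM2G178074) measured 37.0 and 65.8 FPKM in S3, against 0.368 and 0.194 FPKM in W (log2 fold change 5.30 ± 0.27 (SE), adjusted p = 2.3e-05). RefSeq names the same gene a phosphoenolpyruvate carboxylase kinase, so its description and its name differ. A CBL-interacting kinase (GRMZM2G177050) had 30.5 and 48.4 FPKM in S3, against 1.83 and 2.63 FPKM in W. Of 41 receptor-like kinases 5 rose and 4 fell, and 8 fell without W replicate 1. Of 81 ubiquitin ligases and conjugating enzymes, which mark proteins for removal, 13 rose and 2 fell, with 8 rises without W replicate 2 or under upper-quartile scaling and 1 fall without S3 replicate 2 or without W replicate 1. Ubiquitin ligase GRMZM2G315431 had 40.3 and 66.3 FPKM in S3, against 0.0636 and 0.178 FPKM in W. Of 11 genes of phosphate, sulphate and metal uptake 4 rose, among them a heavy metal-associated protein (GRMZM2G032807) with 205 and 173 FPKM in S3, against 9.33 and 10.7 FPKM in W. Of 37 genes of mitochondrial electron transport 1 fell, with a median of 0.08, and 3 fell without S3 replicate 2.

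Some genes with the same description moved in opposite directions. Of 2 genes described as the tubulin alpha-6 chain, a building block of microtubules, GRMZM2G040559 rose, with 271 and 169 FPKM in S3, against 25.9 and 21.1 FPKM in W (log2 fold change 3.14 ± 0.27 (SE), adjusted p = 1.5e-04). GRMZM2G083243 fell, with 16.9 and 19.7 FPKM in S3, against 152 and 187 FPKM in W (log2 fold change -3.14 ± 0.19 (SE), adjusted p = 3.9e-05). The summed FPKM of both was 288 and 189 FPKM in S3, against 178 and 209 FPKM in W. Reads of near-identical tubulin copies may be assigned to either, and this was not tested. Among small heat shock proteins an hsp20 family member (GRMZM2G429396) fell, with 3.82 and 3.37 FPKM in S3, against 30.3 and 38.3 FPKM in W.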
